A study of Drosophila melanogaster with 42 samples.

Results

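Wing imaginal discs of third-instar Drosophila melanogaster larvae were compared between a pair of mutant labels, delta B and delta F, each named for a conserved region of the intracellular domain of the protocadherin Fat. The libraries were chosen by a measured share: delta B libraries of the NovaSeq 6000 with over 3% of their counts on genes with rRNA in the symbol (replicates 1 to 3), and the 3 delta F libraries. These are 6 of the 42 libraries of the series, and 6 of the 21 sequenced on the NovaSeq 6000. The labels give the genotype only as delta B or delta F. They name no parental line, clone, sex, culture date or number of animals, and do not say how the region was changed, so each label stands for a genotype whose other differences are unknown here. Total RNA was taken from both groups with the same kit, and 10 ng went into each library. No wild type library of the NovaSeq 6000 passed 3%, so neither label was set against wild type.

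Fat is a giant cadherin on the surface of disc cells that binds its ligand Dachsous on the neighbouring cell. Its intracellular domain restrains the myosin Dachs and so keeps the kinase Warts active, which holds the growth co-activator Yorkie out of the nucleus. The same domain acts in planar cell polarity, the common orientation of hairs and cells across the wing plane. Heat shock proteins are chaperones that bind unfolded proteins, and their genes are switched on by the transcription factor Hsf when proteins misfold. The study used the mutants to find which regions of the domain act in growth control and in polarity.

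The share of counts on rRNA-symbol genes, which chose the libraries, was 11.48% to 13.42% in delta B 1 to 3 and 10.47% to 11.79% in delta F. A further library labelled delta B, replicate 4, had 0.79% and was left out, and no delta B library lay between 0.79% and 11.48%. Total counts were 31957164 to 48392354 in delta B and 30629365 to 36742457 in delta F, and 11658 to 12288 genes against 11038 to 11119 genes had at least 1 count. Levels are CPM, counts scaled to library size, and changes are log2 fold changes, delta B over delta F, with their standard errors (SE). A change was called at an adjusted p under 0.05. The 7 libraries of delta A (n = 4) and delta C (n = 3), which also passed 3%, stood in the same fit of 13 libraries and shared its estimate of the spread. Libraries of delta B and of delta F ranked genes alike (Spearman 0.989 to 0.995 within delta B and 0.993 to 0.995 within delta F), and the correlations between these labels were 0.965 to 0.979. The libraries of delta A were less even (0.9395 to 0.9893) than those of delta C (0.9829 to 0.9953), and both labels fed the shared spread. Every pair of libraries within delta B and within delta F differed beyond counting noise, with a chi-square per degree of freedom of at least 10.1. Pairs within delta A and within delta C were not checked in this way. Nothing in the labels says that replicates came from separate animals or cultures, so p-values measure the spread between these libraries, which may be technical.

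Of 9707 genes tested, 1596 (16.4%) differed between delta B and delta F, 788 higher (8.12%) and 808 lower (8.32%) in delta B. At least 2-fold changes were found for 709 genes (7.3%), of which 452 were higher (4.66%) and 257 lower (2.65%). The median size of change was 0.84 in the called genes and 0.27 in all genes tested, and the signed median of all genes was 0.0025. The groups did not overlap in 4974 genes (51.2%), the share to set beside each gene described below as without overlap. Leaving out 1 library at a time left 763 to 1356 calls, 1356 without delta B 1, 1103 without delta B 2, 869 without delta B 3, 919 without delta F 1, 893 without delta F 2 and 763 without delta F 3. With delta B 4 kept in delta B there were 745 calls, of which 737 were among the 1596. Against the mean of delta A and delta C, 3676 genes (37.9%) differed in delta B, 18.8% of all tested being higher and 19.1% lower. In delta F 271 genes (2.79%) differed from that mean, 1.13% higher and 1.66% lower. Both of these counts use the same delta A and delta C libraries. Leaving out 1 library of the label left 2283 to 2845 calls for delta B; for delta F it left 87 without delta F 1, 83 without delta F 2 and 101 without delta F 3, and delta B 4 kept in delta B left 70.

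**Figure D1:**
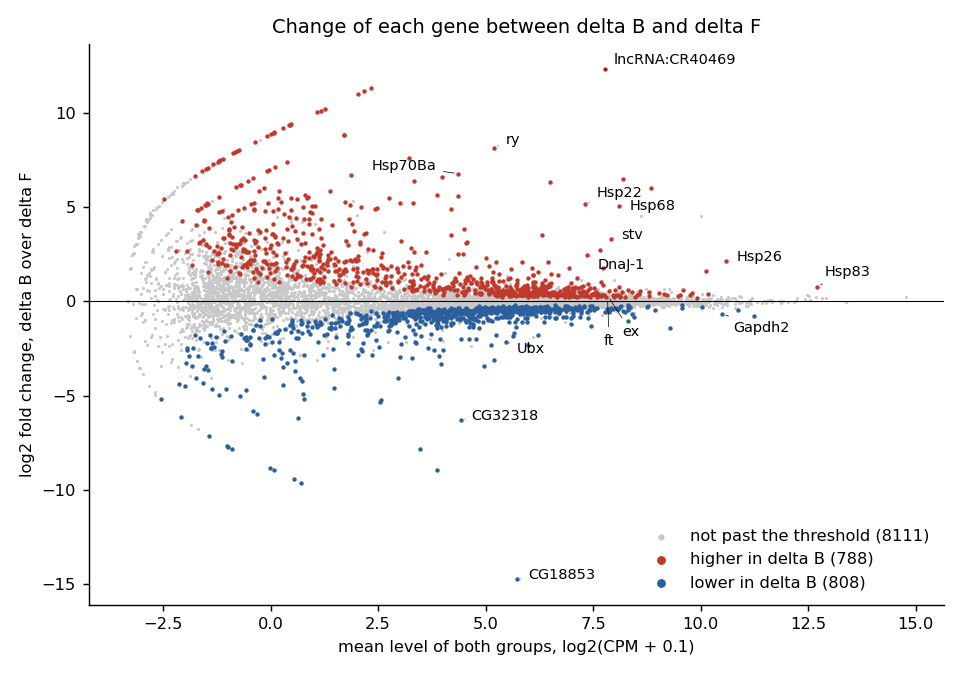
Each point is a gene, with the mean level of both labels as log2(CPM + 0.1) on the x axis and the log2 fold change of delta B over delta F on the y axis; red marks the 788 genes called higher in delta B, blue the 808 called lower and grey the rest. The chaperone genes lie above 0 at high levels, ft and ex lie near 0, and for genes at 0 counts in 1 label the height depends on the prior count and is no measured fold.

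The genes of the heat shock response were higher in delta B. Of the 12 tested genes of the inducible Hsp70 family and the large chaperones, 9 rose and none fell, with a median log2 change of 4.54. Of all genes tested 8.12% rose. All 12 were without overlap between the groups, as were 51.2% of all genes tested. Of 7 small heat shock genes 3 rose and none fell, with a median of 0.36. Of 4 constitutive Hsc70 genes 1 rose, the Hsp110 gene Hsc70Cb.

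DnaJ-1, the Hsp40 co-chaperone that hands substrates to Hsp70, had 304.2, 258.3 and 266.2 CPM in delta B and 54.9, 51.3 and 43.9 CPM in delta F. The lowest delta B library lay far above the highest delta F library. The log2 change was 2.46 ± 0.11 (SE; adjusted p = 1.1e-07). DnaJ-1 averaged 54.6 ± 3.74 CPM in delta A (SD, n = 4) and 50.6 ± 3.84 CPM in delta C (SD, n = 3), levels that overlapped those of delta F.

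starvin (stv), a BAG-family co-chaperone that releases substrates from Hsp70, had 386.9, 396.8 and 522.2 CPM in delta B and 50.2, 43.9 and 37.1 CPM in delta F. The groups were again far apart, with a log2 change of 3.31 ± 0.25 (adjusted p = 8.27e-06). Hsp83, the fly Hsp90, had 8434, 8604 and 8384 CPM in delta B and 4939, 5154 and 4630 CPM in delta F. All delta B libraries were above all delta F libraries, and the change was 0.79 ± 0.07 (adjusted p = 1.68e-05). Hsf, the activator of these genes, had 187.7, 192.1 and 218.4 CPM in delta B and 129.7, 134.2 and 134.5 CPM in delta F. It rose by 0.59 (adjusted p = 0.00107), a smaller step than those of DnaJ-1, stv and Hsp83, and also without overlap.

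Hsp68, an inducible member of the Hsp70 family, had 952.7, 341.4 and 294.3 CPM in delta B and 28.4, 14.4 and 4.89 CPM in delta F. Delta B 1 was the highest delta B library and delta F 1 the highest delta F library, and the spread within each label was wide. The change was 5.06 ± 1.02 (adjusted p = 0.00692). The same unevenness ran through the Hsp70 copies. Hsp70Ba had 83.45, 26.54 and 11.46 CPM in delta B and 0.842, 0.165 and 0.11 CPM in delta F, a change of 6.78 (adjusted p = 0.00171). Hsp70Bb had 978.1, 404.8 and 348.3 CPM in delta B and 13.7, 5.68 and 0.22 CPM in delta F, a change of 6.47 (adjusted p = 0.0434). Hsp70Bbb (6.04, adjusted p = 0.034) and Hsp70Bc (6.35, adjusted p = 0.0348) were also called. In each of the 6 fits without 1 library, Hsp70Bb, Hsp70Bbb and Hsp70Bc lost their calls (highest adjusted p 0.135, 0.114 and 0.137), and 6 of the 12 genes were called.

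Hsp70Ab had 3231, 1391 and 1325 CPM in delta B and 176.1, 77.6 and 1.68 CPM in delta F. The groups did not overlap, yet its change of 4.54 did not pass (adjusted p = 0.114). Hsp70Aa, which 1 delta F library listed at 0, had an adjusted p of 0.103. With only delta B and delta F in the fit Hsp70Ab (adjusted p = 0.0186) and Hsp70Aa (0.0193) passed, and in no fit without 1 library. The Hsp70 copies are nearly identical in sequence, so how their reads were shared out among them is uncertain, and the copies were named after their values were seen. Hsp60A, the mitochondrial chaperonin, had a change of 0.14 (adjusted p = 0.291).

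Among the small heat shock genes, Hsp22, whose protein works in mitochondria, had 350.1, 227.6 and 352.5 CPM in delta B and 10.3, 8.78 and 6.74 CPM in delta F. The groups were far apart, with a change of 5.17 ± 0.98 (adjusted p = 0.00488). Hsp26 had 2155, 2401 and 2931 CPM in delta B and 472.3, 608.7 and 587.9 CPM in delta F, and Hsp67Bc had 30.6, 39.6 and 35.8 CPM in delta B and 1.26, 0.858 and 1.4 CPM in delta F. Both rose in delta B without overlap, by 2.17 ± 0.27 and 4.90 ± 0.61 (adjusted p = 0.000334 for each). The other tested members, Hsp23, Hsp27, Hsp67Ba and l(2)efl, had changes of 0.36, 0.33, -0.19 and -0.15 and did not pass. Hsp22 and Hsp26 lie near each other on 3L (9372931 to 9374964 and 9376418 to 9377427 in genome release 6).

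lncRNA:Hsromega, a long noncoding RNA that heat induces at a nuclear speckle locus, was named after its values were seen. It had 1659, 1420 and 1942 CPM in delta B and 481.4, 649.8 and 535.5 CPM in delta F, without overlap. The change was 1.59 ± 0.19 (adjusted p = 0.000279). The gene Hsc70Cb had 526.4, 501.2 and 527.7 CPM in delta B and 387.6, 363.8 and 363.1 CPM in delta F. It rose by 0.48 (adjusted p = 0.000366), and its groups did not overlap.

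The library left out for its low share did not show the response. On a common scaling of all 21 libraries, delta B 4 had 36.9 CPM of DnaJ-1, where delta B 1 to 3 had 269.4 to 315.6 CPM and delta F had 46.3 to 57.2 CPM. It had 5.36 CPM of Hsp68 and none of Hsp70Bb. Its stv level of 102.1 CPM lay between those of both groups. With delta B 4 kept, DnaJ-1, stv, Hsp83, Hsp67Bc, Hsp70Ba, lncRNA:Hsromega and Hsc70Cb stayed past the threshold (adjusted p up to 0.0479). Hsp22 (0.0596), Hsp68 (0.0602), Hsf (0.132) and Hsp26 (0.158) did not, and 4 of the 12 large chaperone genes and 1 of the 7 small ones were called. Apart from the Hsp70 copies named above, each called heat shock gene held when any 1 library was left out. The part that the difference in ribosomal RNA share plays in delta B 4 was not tested.

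**Figure D2:**
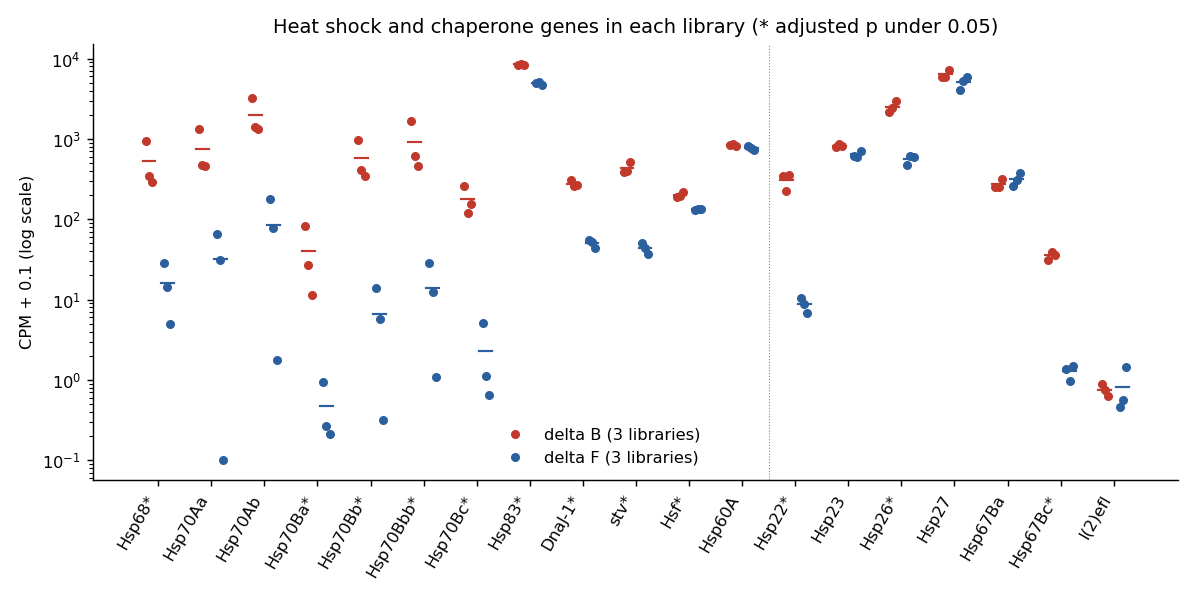
Each point is 1 library and each bar a group mean, as CPM + 0.1 on a log axis, with delta B in red to the left of delta F in blue for the large chaperones (left of the dotted line) and the small heat shock genes (right of it). Delta B lies above delta F in every called gene, and an asterisk marks an adjusted p under 0.05.

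Against delta A and delta C the chaperone rise was seen in delta B and was not called in delta F. DnaJ-1 differed from the mean of delta A and delta C by 2.39 ± 0.08 in delta B (adjusted p = 5.94e-09) and by -0.07 ± 0.09 in delta F (adjusted p = 0.73). stv differed by 3.52 ± 0.19 in delta B (adjusted p = 3.45e-07) and by 0.20 ± 0.19 in delta F (adjusted p = 0.639). Hsp68 was less even, since delta A libraries ranged from 10.6 to 86.0 CPM on the common scaling. It differed by 5.05 ± 0.74 in delta B (adjusted p = 0.000475) and by -0.01 ± 0.75 in delta F (adjusted p = 1).

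**Figure D3:**
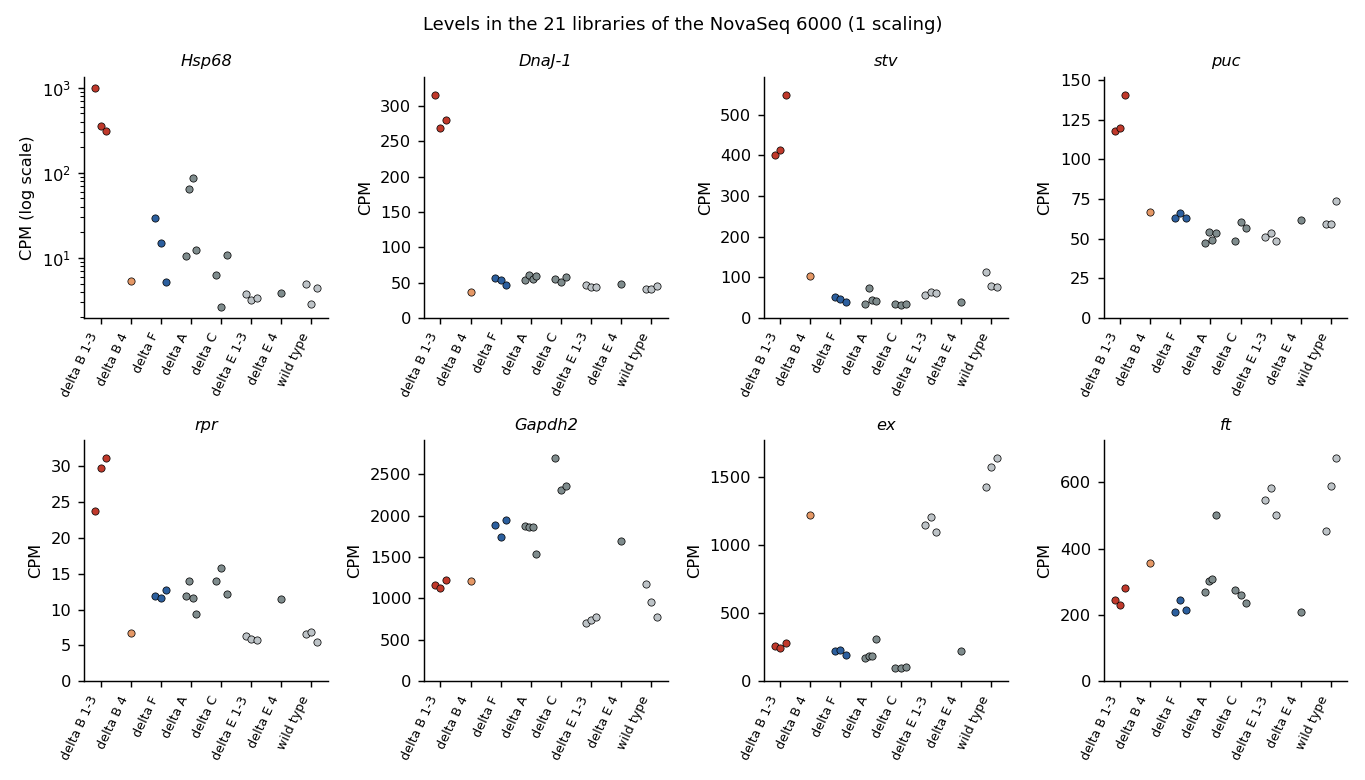
Each point is 1 library of the NovaSeq 6000 in CPM on 1 scaling of 21 libraries (Hsp68 on a log axis, the others on linear axes), with delta B 1 to 3 in red, delta B 4 in orange, delta F in blue, other libraries over 3% ribosomal RNA in dark grey and those under 3% in light grey. Delta B 1 to 3 stand above every other library for Hsp68, DnaJ-1, stv, puc and rpr, while ex was higher in delta B 4, at 1225 CPM, and in the other libraries under 3% than in any library over 3%.

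Some genes of the JNK stress pathway were higher in delta B. Of 14 tested genes of the JNK and disc damage list, 3 rose and none fell (median 0.23). puckered (puc), the phosphatase gene that JNK switches on and that feeds back on it, had 113.5, 114.6 and 133.8 CPM in delta B and 60.7, 64.0 and 59.6 CPM in delta F. No delta B library came near the delta F libraries, and the change was 0.97 ± 0.10 (adjusted p = 0.000111). Jra, the fly Jun, had 93.3, 108.2 and 123.2 CPM in delta B and 60.5, 70.6 and 62.7 CPM in delta F. It rose by 0.74 ± 0.11 (adjusted p = 0.00107) with no overlap. Both held when any 1 library was left out, and with delta B 4 kept Jra did not pass (adjusted p = 0.072).

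Ets21C, a transcription factor induced by JNK in damaged discs, had 1.05, 2.03 and 4.58 CPM in delta B and 0.389, 0.066 and 0.11 CPM in delta F. The levels were low in both labels but did not overlap, and the change was 3.74 (adjusted p = 0.0147). It was not called without delta B 3, delta F 2 or delta F 3 (highest adjusted p 0.0754). kayak (kay), the fly Fos, had 257.4, 290.4 and 494.5 CPM in delta B and 143.7, 170.5 and 156.7 CPM in delta F, which did not pass (1.15, adjusted p = 0.192). It passed with only delta B and delta F in the fit (adjusted p = 0.00593) and with the replicate block (0.00514), and in no fit without 1 library. The matrix metalloprotease gene Mmp1, a common reporter of JNK activity, had 28.9, 37.5 and 40.9 CPM in delta B and 47.2, 58.5 and 55.7 CPM in delta F. That was the opposite sign and did not pass (-0.59, adjusted p = 0.0626). The damage signals Ilp8 (1.31, adjusted p = 0.409) and upd3 (0.74, adjusted p = 0.329) did not pass.

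Of 11 apoptosis genes, 1 rose and 1 fell (median 0.068). reaper (rpr), which triggers cell death by blocking the inhibitor Diap1, had 22.9, 28.6 and 29.6 CPM in delta B and 11.4, 11.2 and 12.1 CPM in delta F. The groups did not overlap, and rpr rose by 1.22 ± 0.15 (adjusted p = 0.000275). hid, another trigger of cell death, did not pass (0.26, adjusted p = 0.585). Diap2, a caspase inhibitor, fell by 0.26 on the log2 scale (adjusted p = 0.0355), a call lost when delta B 1, delta B 3, delta F 1, delta F 2 or delta F 3 was left out (highest adjusted p 0.13). In delta B 4 rpr had 6.77 CPM and puc 66.6 CPM, the first below and the second near the levels of delta F; with that library kept, puc was called (adjusted p = 0.0311) and rpr was not (adjusted p = 0.131).

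No gene of the Fat pathway itself was called in the fit of 13 libraries, though some were called in other fits. ft, which encodes Fat (2L, 4198404 to 4221796), had 237.2, 221.8 and 267.4 CPM in delta B and 200.6, 235.6 and 205.0 CPM in delta F. The groups overlapped, and the change was 0.18 ± 0.20 (adjusted p = 0.581). The counts cover the whole gene, so they do not check which region was changed. None of the 11 tested genes of the Fat and Dachsous list passed in that fit; 9 had a positive change, and the median was 0.13.

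dachs (d), the myosin that Fat restrains, had 261.3, 287.1 and 311.9 CPM in delta B and 199.9, 198.0 and 172.0 CPM in delta F. This was the nearest of the list to the threshold: the groups did not overlap, and the change was 0.59 ± 0.19 (adjusted p = 0.0557). It passed with only these labels in the fit (adjusted p = 0.00185), by the DESeq2 Wald test (0.0205), with all 21 libraries (0.0196) and with the length trend removed (0.00458), and in no fit without 1 library. The palmitoyltransferase gene app, which acts with Dachs, had a change of 0.32 (adjusted p = 0.106), and passed with only these labels (0.0138) and with all 21 libraries (0.0453). lft, which helps to hold Fat and Dachsous at the membrane, had 115.4, 125.2 and 124.8 CPM in delta B and 140.8, 152.1 and 166.9 CPM in delta F. It was lower in every delta B library but did not pass (-0.33, adjusted p = 0.125), except with only these labels in the fit (0.00985). The other members had small changes: ds, the ligand, 0.13; fj, the Golgi kinase that tunes the binding of Fat and Dachsous, 0.05; dco, a kinase of Fat, 0.13; Dlish, an adaptor of Dachs, -0.19 (adjusted p = 0.3, and 0.0313 with only these labels); Fbxl7, an F-box protein that binds Fat, 0.56; Gug, a co-repressor that binds Fat, 0.27; and Zyx 0.01.

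The Hippo and Yorkie genes changed little. Of 20 tested genes of the Hippo kinase cassette and its regulators 1 rose (median 0.19), Sik2, a salt-inducible kinase. It had 2.27, 1.13 and 6.92 CPM in delta B and 0.583, 0.891 and 0.77 CPM in delta F (2.19, adjusted p = 0.0381), and the call was lost without delta B 3, delta F 1, delta F 2 or delta F 3 (highest adjusted p 0.21). The core kinase genes hpo (0.10) and wts (-0.22) did not pass. Of 10 tested genes of Yorkie and its nuclear partners 1 rose, Mad, described with the Dpp genes.

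Of 15 tested Yorkie target genes 1 rose and none fell, with a median of 0.23. The median was 0.0025 for all genes and 0.19 for the 2408 genes with the longest transcripts. expanded (ex), the target that also feeds back on the pathway, had 252.6, 237.4 and 265.4 CPM in delta B and 213.7, 221.0 and 183.1 CPM in delta F. The groups did not overlap, but the change of 0.29 ± 0.20 did not pass (adjusted p = 0.339). It passed where only delta B and delta F were fitted (0.29 ± 0.08, adjusted p = 0.0264), without delta A and delta C in the spread. In delta A, ex ran from 159.2 to 300.5 CPM in the fit of 13 libraries. With the length trend removed the change of ex was 0.08 (adjusted p = 0.349). Myc, a growth regulator, had 340.6, 286.3 and 382.4 CPM in delta B and 244.6, 251.9 and 225.6 CPM in delta F. It rose by 0.48 ± 0.12 (adjusted p = 0.0166), and the call was lost without delta B 3 or delta F 3 (highest adjusted p 0.0716). Diap1 (0.07), CycE (-0.15), fj (0.05) and wg (0.12), targets in the wing disc, did not pass and overlapped between the groups.

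**Figure D4:**
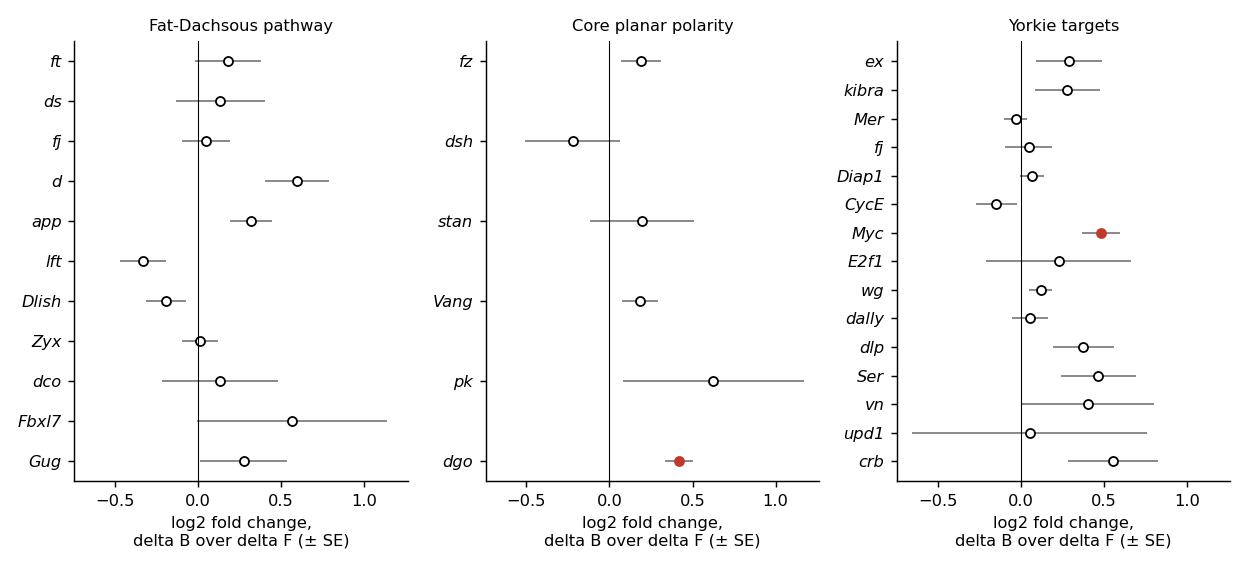
Points are log2 fold changes of delta B over delta F and lines reach 1 SE to each side, for the members of the Fat-Dachsous, core planar polarity and Yorkie target lists; filled points passed the threshold. In these lists dgo and Myc passed, and most lines cross or come near 0.

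Of the 6 core planar polarity genes, which set cell orientation through asymmetric complexes, 1 rose. diego (dgo), a scaffold of the complex that holds Frizzled, had 49.2, 55.1 and 53.6 CPM in delta B and 41.2, 38.3 and 38.6 CPM in delta F. The groups did not overlap, and dgo rose by 0.42 ± 0.08 (adjusted p = 0.00642), a call that held when any 1 library was left out. The changes of the others were 0.19 for fz, -0.22 for dsh, 0.20 for stan, 0.18 for Vang and 0.63 for pk, and none passed. With only delta B and delta F fitted, pk passed (0.62, adjusted p = 0.00654). Of 8 tested planar polarity effectors 1 rose. multiple wing hairs (mwh), which limits each wing cell to a single hair, had 4.70, 5.94 and 16.0 CPM in delta B and 1.65, 0.957 and 1.43 CPM in delta F. Delta B 3 was the highest, no libraries overlapped, and the change was 2.71 (adjusted p = 0.00323).

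Growth of the disc also depends on Dpp, a BMP morphogen, and its list rose in part. Of 15 tested genes of the Dpp pathway and its targets, 5 rose and none fell, with a median of 0.31. magu, which encodes a secreted SMOC protein that acts on the spread of Dpp signalling, had 228.1, 229.0 and 226.8 CPM in delta B and 151.3, 134.7 and 129.9 CPM in delta F. The delta B libraries were nearly equal and above all delta F libraries (0.72 ± 0.07, adjusted p = 8.85e-05). Dad, an inhibitory Smad that Dpp induces, had 159.3, 156.7 and 137.0 CPM in delta B and 112.3, 111.2 and 101.5 CPM in delta F. It rose by 0.48 (adjusted p = 0.0124) without overlap. The receptor genes put (0.25, adjusted p = 0.0139) and tkv (0.42, adjusted p = 0.0375) and the Smad gene Mad (0.31, adjusted p = 0.0228) rose as well. Only magu among these held when any 1 library was left out: without delta B 2, delta F 1 or delta F 3, 2 of the list were called, and with delta B 4 kept, 1. Dad was lost without delta F 3 (adjusted p = 0.0603), put without delta B 2 or delta F 1 (highest adjusted p 0.0648), and Mad and tkv in each of the 6 fits without 1 library (highest adjusted p 0.0911 and 0.131).

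Of 25 tested Notch genes, 2 rose and 6 fell (median -0.013). Of all genes tested 8.12% rose and 8.32% fell, the shares to set beside this and each other list. E(spl)m4-BFM, a Bearded-family target of Notch, had 3.32, 2.65 and 1.30 CPM in delta B and 6.84, 6.44 and 7.31 CPM in delta F. E(spl)mgamma-HLH, a repressor that Notch induces, had 4.25, 5.98 and 5.18 CPM in delta B and 9.75, 8.58 and 10.3 CPM in delta F. Both were lower in every delta B library, by -1.50 (adjusted p = 0.00479) and -0.89 (adjusted p = 0.00454). E(spl)m3-HLH of the same gene cluster had 132.6, 141.1 and 170.9 CPM in delta B and 109.4, 99.3 and 108.9 CPM in delta F. It rose by 0.49 (adjusted p = 0.0057), and these 3 calls held when any 1 library was left out. With delta B 4 kept the rise of E(spl)m3-HLH was not called (0.15, adjusted p = 0.807). Brd (-1.19), E(spl)m8-HLH (-1.12), E(spl)m5-HLH (-2.88) and Su(H) (-0.32) fell too. E(spl)m5-HLH and Su(H) were each lost in every fit without 1 library but that without delta B 1 (highest adjusted p 0.121 and 0.0968), E(spl)m8-HLH without delta F 2 or delta F 3 (0.0658), and Brd with delta B 4 kept (0.137). In addition neur, which helps to activate the Notch ligands, rose by 0.49. Without delta F 2 or delta F 3, 4 of the 25 genes were called.

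Of 18 tested EGF receptor genes 3 rose and 2 fell (median 0.14). Dsor1, the MAP kinase kinase of the pathway, had 56.9, 50.1 and 41.2 CPM in delta B and 74.6, 74.0 and 80.3 CPM in delta F. It was lower in every delta B library (-0.63, adjusted p = 0.00294), whichever library was left out. The ligand gene spi fell by 0.47 on the log2 scale, and the inhibitors aos (1.004, adjusted p = 0.0162) and edl (0.78, adjusted p = 0.0132) and the repressor aop (0.54, adjusted p = 0.0308) rose. Each of these 4 was lost in at least 1 fit without a library, aos without delta F 1 or delta F 3 (highest adjusted p 0.0651), edl without delta F 1 (0.0633), aop without delta B 3, delta F 1, delta F 2 or delta F 3 (0.116) and spi without delta B 3, delta F 2 or delta F 3 (0.087). Without delta F 1 or delta F 3, 2 of the 18 were called.

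Of 21 tested Wingless genes 1 rose and 2 fell. arrow (arr), the LDL-receptor-related co-receptor for Wingless, had 260.9, 269.5 and 295.4 CPM in delta B and 156.5, 157.7 and 138.7 CPM in delta F. The groups did not overlap, and arr rose by 0.87 (adjusted p = 0.00817). por, whose product puts the lipid on Wnt proteins, and the receptor gene fz3 fell by 0.35 and 0.46 on the log2 scale; without delta B 2, delta B 3, delta F 1 or delta F 3 neither was called (highest adjusted p 0.0975 and 0.0998), and 1 of the 21 genes was. None of 14 Hedgehog and posterior compartment genes passed. JAK/STAT had 1 rise of 11, Stat92E by 0.31 (adjusted p = 0.0296, lost in every fit without 1 library but that without delta B 2, highest 0.118).

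Glycolysis genes were lower in delta B: of 10 tested, 5 fell and 1 rose, with a median of -0.29. Pglym78, phosphoglycerate mutase, had 91.6, 94.2 and 81.5 CPM in delta B and 167.5, 156.7 and 166.3 CPM in delta F. It fell by 0.88 on the log2 scale with SE 0.09 (adjusted p = 6.12e-05), with no overlap. Gapdh2, glyceraldehyde 3-phosphate dehydrogenase, had 1119, 1081 and 1166 CPM in delta B and 1809, 1678 and 1851 CPM in delta F. Its change was -0.66 ± 0.08 (adjusted p = 0.000296), again with no overlap. Tpi had 389.6, 446.2 and 401.6 CPM in delta B and 570.9, 547.8 and 598.8 CPM in delta F (-0.47, adjusted p = 0.00491). Pfk (-0.55, adjusted p = 0.00883) and Eno (-0.32, adjusted p = 0.0244) also fell.

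The rise was Ldh, which turns pyruvate into lactate, with 17.5, 24.1 and 30.6 CPM in delta B and 9.04, 15.6 and 16.5 CPM in delta F (0.81, adjusted p = 0.0452). Eno was lost in every fit without 1 library but that without delta F 2, and Ldh in every one but that without delta B 1 (highest adjusted p 0.0911 and 0.18). With delta B 4 kept, Pglym78, Gapdh2 and Tpi stayed called and the other 3 did not. Gapdh2 had 1209 CPM in delta B 4 and 1128 to 1226 CPM in delta B 1 to 3 on the common scaling, so here the library left out stood with its label. Wild type and delta E 1 to 3, which like delta B 4 lie under 3% ribosomal RNA, also had low Gapdh2 in the plot of 8 genes by library.

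Nuclear genes for mitochondrial proteins are set here beside the 8.32% of all genes, and the 12.4% of the genes with the shortest transcripts, that were called lower. Of 73 tested genes of mitochondrial ribosomal proteins 10 fell and none rose (median -0.25), and of 64 nuclear respiratory chain genes 7 fell and 1, ND-39, rose (median -0.20). UQCR-11, a complex III subunit, had 98.6, 108.7 and 97.2 CPM in delta B and 252.3, 222.4 and 273.3 CPM in delta F. mRpL18, of the large mitochondrial ribosomal subunit, had 15.2, 17.9 and 12.6 CPM in delta B and 37.1, 35.8 and 37.9 CPM in delta F. In both genes every delta B library was below every delta F library, with changes of -1.30 (adjusted p = 0.00679) and -1.28 (adjusted p = 0.000206). Leaving out 1 library reduced the lists to as few as 1 call each, mRp genes without delta F 3 and respiratory chain genes without delta B 3, delta F 1 or delta F 3; UQCR-11 and mRpL18 held in each. None of 87 cytoplasmic ribosomal protein genes (median -0.054) and none of the 13 genes of the mitochondrial genome (median -0.16) passed.

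Transcript length moved with these changes. Over 9635 genes with an annotated length the log2 change rose by 0.0837 per doubling of the longest transcript. In the 2409 genes with the shortest transcripts (138 to 1208 bases) the median was -0.19, with 5.31% called higher and 12.4% lower; in the 2408 genes with the longest (3270 to 71382 bases) it was 0.19, with 9.84% and 3.11%. The mitochondrial ribosomal genes have a median longest transcript of 778 bases and the respiratory chain genes of 813 bases, against 1964 for all genes. The Dpp list has a median of 3890 bases and the glycolysis list of 1835 bases. With the length trend taken out per library, 4 Dpp genes, 7 glycolysis genes and 9 large chaperone genes were called. In that fit 15 mitochondrial ribosomal genes were called, 6 higher and 9 lower (median -0.061), and 8 respiratory chain genes, 3 higher and 5 lower (median 0). Listed genes no longer called in it were Myc (adjusted p = 0.307), put (0.582), Mad (0.106), caup (0.133), aop (0.252), Stat92E (0.0876), neur (0.0507), eater (0.0601) and aPKC (0.304). The mitochondrial lists lost ND-23 (adjusted p = 0.417), ND-B14.5A (0.185), mRpL50 (0.0792) and mRpS23 (0.071). CycE was called in the same fit, lower by -0.30 (adjusted p = 0.021).

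Markers of tissues that can cling to a dissected disc were also counted. Wing pouch genes were present in every library, with a summed level of 1486.23 to 1674.7 CPM in delta B and 1235.02 to 1349.82 CPM in delta F; nub, the pouch marker, had 346.9, 323.3 and 357.7 CPM in delta B and 243.8, 248.1 and 220.7 CPM in delta F (0.53, adjusted p = 0.377). Of 12 pouch genes 1 rose, pdm2, the paralogue of nub, with 54.5, 49.0 and 59.0 CPM in delta B and 25.3, 26.0 and 24.7 CPM in delta F (1.10, adjusted p = 0.00107, no overlap). None of 9 hinge genes passed. Of 11 notum genes 2 rose: caup, an Iroquois factor, had 119.6, 117.5 and 114.8 CPM in delta B and 89.0, 90.2 and 81.7 CPM in delta F (0.43, adjusted p = 0.00152). Dr had 76.1, 90.8 and 166.1 CPM in delta B and 49.7, 40.6 and 23.0 CPM in delta F (1.56, adjusted p = 0.024, lost without delta B 3, delta F 2 or delta F 3, highest 0.108).

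Ubx, the Hox gene that marks the haltere and hind leg discs, had 12.8, 15.9 and 19.99 CPM in delta B and 46.6, 79.9 and 90.2 CPM in delta F. The groups did not overlap, and Ubx was lower by -2.16 ± 0.44 (adjusted p = 0.00747). Delta A averaged 20.9 ± 12.8 CPM (SD, n = 4) and delta C 95.6 ± 26.8 CPM (SD, n = 3), so delta B stood with delta A and delta F with delta C. In whole discs fewer cells of a type and less RNA per cell cannot be told apart. Ubx was the 1 gene of 5 tested Hox genes that passed.

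Larval fat body genes were low but higher in delta B: 3 of 8 rose (median 3.87), and the summed level was 75.1 to 171.01 CPM in delta B and 38.84 to 42.59 CPM in delta F, where Mtp alone had a mean of 37.1 CPM in delta B and 37.5 CPM in delta F. Lsp2, a storage protein gene, had 9.97, 10.96 and 38.05 CPM in delta B and 0.194, 0.429 and 0.0825 CPM in delta F (6.40, adjusted p = 0.0124). Fbp1, a receptor gene for larval storage proteins, had 13.1, 6.58 and 66.1 CPM in delta B and 0.356, 0.957 and 0.385 CPM in delta F (5.66, adjusted p = 0.00938), and delta A averaged 853.8 CPM. Delta B 3 was highest for both, and without delta F 3 none of the 8 was called.

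Of 10 hemocyte genes 4 rose (median 1.19), and the summed level was 79.02 to 92.78 CPM in delta B and 71.23 to 79.83 CPM in delta F. Most of this sum was crq, which was not called, at 39.92 to 54.66 CPM in delta B and 51.89 to 56.08 CPM in delta F on the common scaling. Of the 10 changes 8 were positive, and the lowest was -0.74. NimC1, a phagocytosis receptor of blood cells, had 3.51, 3.10 and 5.21 CPM in delta B and 0.324, 0.33 and 0.495 CPM in delta F (3.34, adjusted p = 6.12e-05, no overlap). Pxn rose by 1.70 (adjusted p = 0.00514), and these calls held when any 1 library was left out, while Hml (1.27) held only without delta B 2 and eater (1.41) in no such fit (highest adjusted p 0.111 and 0.149). Against the mean of delta A and delta C, delta F was lower for NimC1 (-2.58, adjusted p = 0.00106), Pxn (-2.19, 0.00309) and Hml (-3.02, 0.000771). Delta B was higher than that mean for NimC1 (0.76, adjusted p = 0.0254) and lower for Hml (-1.75, 0.00135). For Pxn delta B was not called against it (-0.49, adjusted p = 0.1645). Of 27 listed midgut protease genes 8 were tested and 3 rose. The summed level of the 8 was 3.59 to 9.25 CPM in delta B and 0.47 to 0.56 CPM in delta F. In delta C, Jon99Cii and Jon99Ciii were at 0 CPM, and in delta A they reached at most 0.5144 and 0.4759 CPM. Delta B carried them past the filter on low counts, so the share that rose is a description and no test. Jon99Cii and Jon99Ciii had no count in delta F and were at least 74.9-fold and 50.4-fold higher in delta B; Jon99Cii was lost without delta B 3, delta F 1, delta F 2 or delta F 3 (highest adjusted p 0.0676), and iotaTry, the other rise, in each fit without 1 library (0.144). None of 17 muscle genes (summed level 458.19 to 486.49 CPM in delta B and 494.17 to 533.98 CPM in delta F), 9 adult muscle precursor and 6 salivary glue genes passed. The summed glue level was 0.99 to 7.46 CPM in delta B and 0.6 to 7.03 CPM in delta F. Among the tested genes of the pouch, hinge, notum, muscle, adult muscle precursor, fat body, hemocyte, glue and midgut lists, the 2 Jon99C genes alone were at 0 counts over a label. The part these cell types play in the stress and growth genes was not tested.

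**Figure D5:**
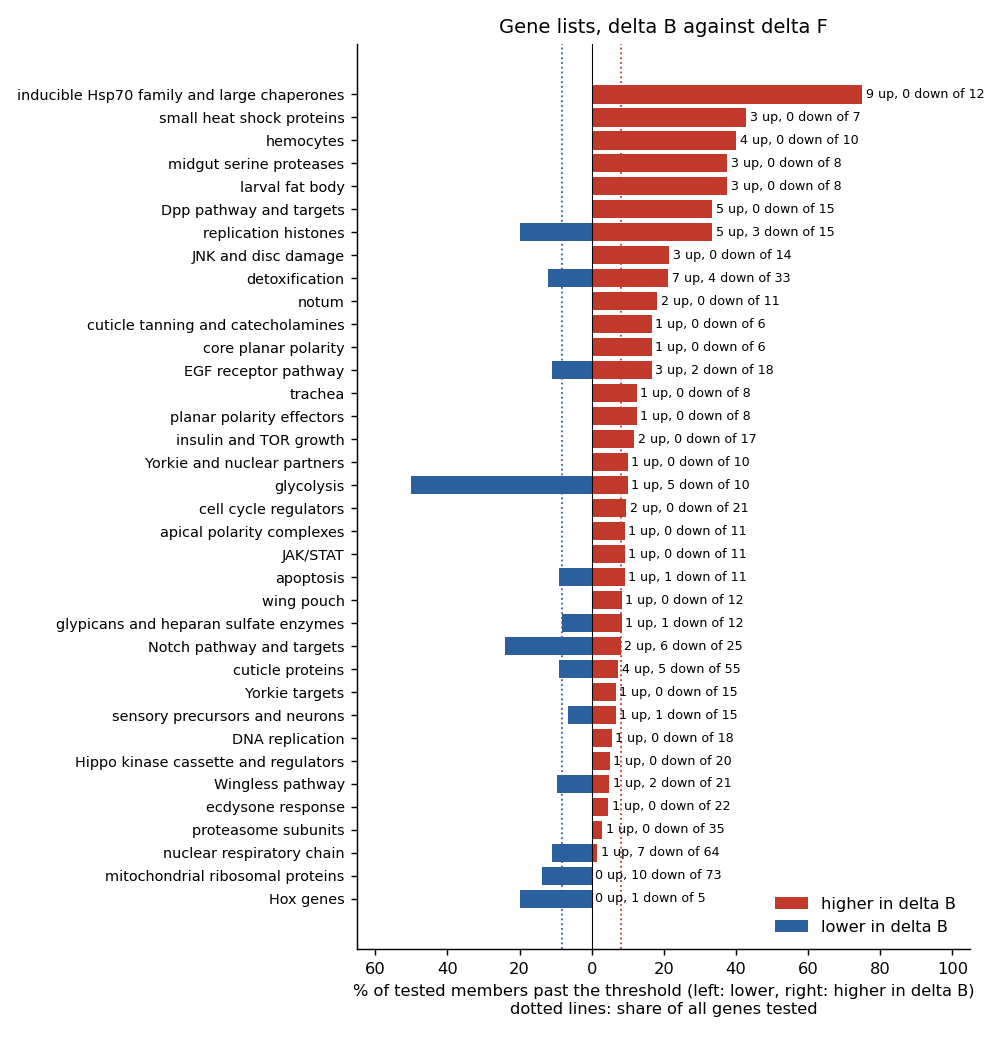
Bars give the percentage of tested members called higher (right, red) and lower (left, blue) in delta B for each list with at least 1 call. The Hsc70 cognates (1 called of 4) and testis (1 of 2) had few tested members and were not drawn. Dotted lines mark the shares of all genes tested, 8.12% higher and 8.32% lower. The large chaperones reach furthest to the right and glycolysis furthest to the left.

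The largest single differences were in genes at or near 0 in 1 label. For 28 genes 1 label had at most 3 counts in all and the other a mean of at least 50 counts per library. Of these, 23 were higher in delta B and 5 higher in delta F. All 28 were called, but they were picked by this gap, so these counts are a description and no test. CG7213 and His1:CG33852 were at 0 CPM in delta A and delta C too, so delta B alone carried them past the filter on low counts. A fold is given as a lower bound against a floor of 3 counts over the group, which covers counting error only. CG18853 (2R, 7829062 to 7830429) had no count in delta B and 106.8, 104.1 and 107.4 CPM in delta F, at least 3890-fold lower in delta B. Delta A and delta C had it at 87.3 to 131.9 CPM, while wild type libraries ranged from 0 to 114.4 CPM. Delta B 4 had 115.4 CPM, so the loss was not shared by the whole label. CG30382, whose end overlaps it on the other strand, had 201.8, 216.1 and 210.2 CPM in delta B and 420.1, 402.1 and 449.5 CPM in delta F (-1.02, adjusted p = 0.000187). The counting is not stated to use strand, so reads of such a pair may be shared.

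lncRNA:CR40469 (X, 122493 to 122706) was the largest rise of a gene with counts in both labels. It had 356.7, 414.2 and 535.2 CPM in delta B and 0.0972, 0.132 and 0.0275 CPM in delta F, a change of 12.30 ± 0.56 (adjusted p = 1.13e-07). Delta B 4 had 0.0439 CPM, and wild type libraries ranged from 0.0418 to 187.5 CPM. rosy (ry), which encodes xanthine dehydrogenase and is a classic marker gene of fly stocks, was named after its values were seen. It had 58.0, 57.9 and 104.1 CPM in delta B and 0.194, 0.099 and 0.44 CPM in delta F (8.16, adjusted p = 1.08e-05). Delta B 4 had 0.132 CPM, so the library left out was on the side of delta F for both genes.

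The other large rises named by the rule had no count in delta F. They were CG7213 (at least 317-fold), the cytochrome P450 gene Cyp6a17 (292), the histone H1 copies His1:CG33816 (254), His1:CG33813 (152) and His1:CG33852 (119), the mucin gene Muc30E (138) and mmd (86.2), an ADAM metalloprotease gene. On the common scaling wild type libraries had 0 to 42.05 CPM of CG7213, 6.93 to 31.93 CPM of Cyp6a17 and 0 to 17.83 CPM of mmd. They had 0 to 19.67 CPM of His1:CG33816, 2.43 to 31.49 CPM of His1:CG33813, 0 to 8.6 CPM of His1:CG33852 and 0 to 0.0341 CPM of Muc30E. Copies of a histone gene are nearly identical, and the split of reads among them is uncertain. CG7213 overlaps Dscam4 on the other strand, which itself had 18.66, 16.26 and 19.99 CPM in delta B and 0.0324, 0.066 and 0.165 CPM in delta F. His1:CG33852 was lost without delta B 3 (adjusted p = 0.0588).

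The other large falls were CG4563 (at least 113-fold lower), Or19b (95.3), an odorant receptor gene, Neto (70.2) and His2B:CG33892 (65.3), each at 0 counts in delta B. CG7900 had 0.032, 0.0214 and 0.126 CPM in delta B and 29.9, 29.1 and 28.5 CPM in delta F (-8.95, adjusted p = 7.11e-09). It ends 249 bases from puc. CG4210 had 0.032, 0.0855 and 0.158 CPM in delta B and 20.4, 21.4 and 23.6 CPM in delta F (-7.84), and SIDL, which overlaps it on the other strand, had a change of -0.01 (adjusted p = 0.973). CG32318 had 0.575, 0.214 and 0.916 CPM in delta B and 45.1, 40.8 and 40.6 CPM in delta F (-6.27, adjusted p = 1.84e-06). On the common scaling wild type libraries had no His2B:CG33892, 0 to 0.0282 CPM of Neto and 0 to 0.251 CPM of Or19b. They had 0 to 0.546 CPM of CG32318, 0 to 2.89 CPM of CG4563, 5.77 to 8.2 CPM of CG7900 and 7.47 to 12.43 CPM of CG4210. Of the 28 genes near 0 in 1 label, delta B 4 lay nearer to delta B 1 to 3 in 13. With delta B 4 kept, CG18853 (adjusted p = 0.452), CG4563 (0.456), CG4210 (0.179) and CG7900 (0.0922) were no longer called; CG4563 was also lost without delta B 3 (0.054).

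Called genes were spread over the genome. The share of tested genes called was 17.4% on 2L, 18.5% on 2R, 16.4% on 3L, 15.2% on 3R, 15.6% on X and 7.14% of 84 genes on chromosome 4. Within 0.5 Mb of ft it was 25.5% of 55 genes, 5 higher and 9 lower, and beyond 8 Mb on the same arm 20.2% of 625. Of the genes within 10 kb of ft, 4 were called, named here for their position. The genes tested in that stretch were not counted, so no share can be set beside the 16.4% of all genes. CG3714, which lies 333 bases from ft (2L, 4189340 to 4198071), had 24.9, 23.3 and 21.6 CPM in delta B and 49.9, 46.4 and 40.8 CPM in delta F. It was lower in every delta B library (-0.97 ± 0.10, adjusted p = 8.85e-05), and its mean was 38.9 CPM in delta A and 52.4 CPM in delta C. CG3702 on the other side had 173.5, 167.6 and 172.3 CPM in delta B and 139.2, 145.5 and 144.1 CPM in delta F (0.26, adjusted p = 0.0177, lost without delta B 3, delta F 1, delta F 2 or delta F 3, highest 0.0713). lncRNA:CR44608 rose by 4.69 (adjusted p = 0.000253). lectin-24Db rose by 1.98 (adjusted p = 0.0197, lost without delta B 3, delta F 1 or delta F 2, highest 0.084). With delta B 4 kept, lncRNA:CR44608 stayed called (adjusted p = 0.0457), while CG3714 (-0.67, adjusted p = 0.0712), CG3702 (0.432) and lectin-24Db (0.169) did not.

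The remaining lists moved in few members. Cell cycle regulators had 2 rises of 21, fzr (0.42, adjusted p = 0.00204) and fzy (0.30, adjusted p = 0.0278), activators of the anaphase-promoting complex, and DNA replication had 1 of 18, Mcm5. fzy was lost without delta B 1, delta B 2, delta F 2 or delta F 3 (highest adjusted p 0.0979). Of 12 genes of glypicans and heparan sulfate enzymes, sgl, which makes the sugar donor for these chains, had 90.5, 93.6 and 135.4 CPM in delta B and 56.3, 61.2 and 61.9 CPM in delta F (0.83, adjusted p = 0.0028), a call lost with delta B 4 kept (adjusted p = 0.121). Hs2st fell by 0.67 on the log2 scale (adjusted p = 0.0173, lost without delta B 3, delta F 2 or delta F 3, highest 0.0666). Insulin and TOR growth had 2 rises of 17, Sesn (2.20) and Pi3K92E (0.50), the first lost without delta B 3, delta F 1 or delta F 3 and the second in each fit without 1 library (highest adjusted p 0.112 and 0.0904). Ecdysone response had 1 of 22, Eip63F-1, with 3.16, 3.68 and 4.23 CPM in delta B and 0.518, 0.561 and 0.577 CPM in delta F (2.73, adjusted p = 0.00498). Cuticle tanning had 1 of 6, Ddc (2.59, adjusted p = 0.0114, lost without delta F 1 or delta F 2, highest 0.0553), and apical polarity 1 of 11, aPKC.

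Cuticle protein genes had 4 rises and 5 falls of 55 (median -0.36), the falls being Cpr47Ee (-4.05), Cpr67Fa1 (-3.0), Cpr97Ea (-2.73), Cpr31A (-2.16) and TwdlE (-0.98), which held when any 1 library was left out. Detoxification genes had 7 rises and 4 falls of 33: GstE12, a glutathione transferase, had 171.4, 179.2 and 173.3 CPM in delta B and 271.3, 243.1 and 269.1 CPM in delta F (-0.58, adjusted p = 0.0017). Histone copies had 5 rises and 3 falls of 15, with His1:CG33840 at 17.6, 8.36 and 8.59 CPM in delta B and 58.9, 58.3 and 57.2 CPM in delta F. Trachea had 1 rise of 8 (verm), testis 1 of 2 (mia) and proteasome 1 of 35 (Rpt3R). Sensory precursors and neurons had 1 rise (neur) and 1 fall (nSyb) of 15. Of these single calls Mcm5, aPKC, verm, mia and Rpt3R were each lost in at least 5 of the 6 fits without 1 library (highest adjusted p 0.145, 0.157, 0.149, 0.11 and 0.115), neur without delta B 3, delta F 2 or delta F 3 (0.061) and nSyb without delta F 3 (0.0517). Without delta F 2 or delta F 3, 5 cuticle genes and 5 detoxification genes were called. None passed of 14 septate junction, 11 basement membrane, 13 dosage compensation and sex, and 2 antimicrobial peptide genes by edgeR.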

How the data were processed

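The authors deposited 1 table of estimated counts (expected counts) per gene, 17208 genes in 42 columns, each mapped to its sample; per the submitters' processing notes it was made with Trimmomatic 0.33, FastQC 0.10 and Salmon 1.80 on dm6, and edgeR is also named. The counts are not normalized; here they were rounded to whole numbers. Positions and lengths came from an annotation of release 6, which 17083 genes matched.

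The comparison used the quasi-likelihood test of edgeR 4.0.16 in R 4.3.3, with TMM scaling and filterByExpr, on 13 libraries (residual degrees of freedom 9, biological coefficient of variation 27.2%), with Benjamini-Hochberg adjustment (threshold 0.05). Genes with rRNA in the symbol (46) chose the libraries and are not among the calls. DESeq2 1.42.0 was an alternative, as were its size factors, no filter on low counts, other sets of libraries, rRNA genes removed first, a length trend (loess, span 0.3) removed, a replicate block and each library left out. The test was checked on simulated data. Log levels in the pairing check use a prior count of 2.

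Named genes were ft, ex, fj, Diap1, CycE, Myc and wg, the Fat-Dachsous and core planar polarity lists, the 8 largest rises and 8 largest falls past the threshold without overlap and with a mean of at least 50 counts, and the 3 members of smallest p of each list with at least 2 calls; others are named where a list had few calls or after their values were seen. The 50 lists and the members were chosen with earlier results of these data known. No gene set test was run.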

Additional observations from a re-analysis of the deposited data

Results flagged for a closer look

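Among the 4 libraries labelled delta B, delta B 4 lay apart from the other 3 in 4 of 13 values examined, by a gap past the 95% critical value of Dixon's ratio (chance alone flags about 1 in 20 groups of values picked beforehand). The 13 values were the share that chose the libraries and the levels of genes picked by hand with results of these data known. That rate therefore does not hold for them, and the gaps are a description and no test. One of the 4, its share of counts on rRNA-symbol genes (0.7921%, where delta B 1 to 3 had 11.48% to 13.42%), is the value by which the libraries were chosen and is given as a description. The other 3 were gene levels. On the common scaling, ex had 1225 CPM in delta B 4 and 247.7 to 278.9 CPM in delta B 1 to 3. DnaJ-1 had 36.9 CPM in delta B 4 and 269.4 to 315.6 CPM in the others. CG18853 had 115.4 CPM in delta B 4 and none in the others. The part of the ribosomal RNA share in these levels was not tested.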

How the results depend on the processing

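The count of genes that differed between delta B and delta F (1596) became 3114 with only these labels in the fit, 745 with delta B 4 kept, 2871 with a replicate block and 763 to 1356 with each library left out; it was 1591 with DESeq2 size factors, 1185 without a filter, 2164 by the DESeq2 Wald test, 1824 with all 21 libraries, 1663 with rRNA genes removed and 1952 with the length trend removed. For delta B against delta A and delta C (3676) the left-out counts were 2283 to 2845. For delta F against delta A and delta C (271) the Wald test gave 675, delta B 4 kept 70, the replicate block 1645 and left-out fits 83 to 101; the share called higher was 66% with the block and 40.6% without. The change of ex (0.29) passed with only these labels (adjusted p = 0.0264) and with the replicate block (0.29, adjusted p = 0.0386). With the length trend removed it was 0.08 (adjusted p = 0.349). Without the length trend ft was -0.05, fj -0.08, ds -0.09, dco -0.03 and stan -0.03. With 1 library left out fj ran from -0.03 (without delta B 1) to 0.1, being -0.01 without delta F 3, and Zyx from -0.02 (without delta F 3) to 0.05; Zyx was -0.03 without a filter and dsh 3.15 with delta B 4 kept. None of these passed. With the replicate block d (adjusted p = 0.00284), app (0.0148), lft (0.0102) and Fbxl7 (0.0407) passed, and the cause was not tested. Of 75 named genes called, 75 stayed called with size factors, only these labels, rRNA genes removed or the replicate block, 74 by the Wald test, 71 without a filter or length trend, 70 with all libraries, 52 with delta B 4 kept and 51 to 69 with 1 library left out. Same-numbered libraries of delta B and delta F did not deviate together (correlations 0.077, -0.026 and 0.048). Delta A and delta C were not in this check, so it does not decide whether the numbers pair libraries in the fit. Genes with at most 3 counts in a label give lower bounds only, since the depth limits them.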
